A study of Mus musculus with 15 samples.

Results

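Collagen genes were compared between mouse fibroblasts and pluripotent stem cell lines measured on Affymetrix arrays. They were chosen by symbol alone: every probe set annotated to a single gene whose symbol is Col, a number, the letter a and a number. This gave 42 genes with 82 probe sets, among 18193 genes that have a probe set of their own, and each gene was read from its brightest probe set over the 15 arrays. The study has 5 groups of 3 arrays. IP20D-3, IP14D-101 and IP14D-1 are induced pluripotent stem (iPS) cell lines, which are fibroblasts returned to a pluripotent state, and each is a single line. CL11 is a line of embryonic stem (ES) cells, the pluripotent cells of the early embryo kept in culture. MEF are mouse embryonic fibroblasts, the cell type from which the iPS lines had been made. IP20D-3, IP14D-1, CL11 and MEF have the genetic background B6D2F1. IP14D-101 has the background C57x129S2, which MEF does not share, so in its comparisons line and background cannot be told apart. The labels name no passage number, sex or reprogramming agent. All pluripotent lines had grown with the cytokine LIF on feeder fibroblasts stopped in division by mitomycin C, with either serum or a replacement for it, and which line had which is not given. The feeders are collagen-producing cells, and the labels record no step that removed them before RNA was taken. The design text calls the arrays of a group biological replicates without saying whether they came from separate cultures, so the p-values measure the spread between these samples.

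Collagens are the main structural proteins of the extracellular matrix. Chains of the same gene or of different genes wind into a helix in the endoplasmic reticulum, after enzymes have hydroxylated their prolines and lysines. They are then secreted, trimmed and cross-linked outside the cell. Fibrillar collagens such as types I, III and V form the ropes of connective tissue and are the classic products of fibroblasts. Type IV collagen forms the sheets of basement membranes and is among the first matrix proteins of the embryo, where the primitive and parietal endoderm secrete it together with laminin. Fibril-associated collagens coat the fibrils, type VI forms beaded filaments, type VII anchors epithelia, multiplexins sit in basement membranes, and the transmembrane collagens are surface proteins.

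The promoter windows of 4 members are shown because the results turn on these genes: Col4a1 and Col4a2, the pair that differed in every comparison between the pluripotent lines, and Col1a2 and Col3a1, fibrillar genes with large differences from fibroblasts. Each window runs from 250 bases before a start position listed for the gene to 50 after it, which need not be the outer end of the gene. Windows are from RefSeq on the build GRCm38.p6 and are written 5′ to 3′ on the gene's strand. Capitals mark the CCAAT box (CCAAT or its reverse ATTGG), the letters TATAAA or TTTATA, and the GC box (GGGCGG or CCGCCC). The Col4a1 window is chr8:11312777-11313076 on the minus strand. The Col4a2 window is chr8:11312555-11312854 on the plus strand. The Col1a2 window is chr6:4505368-4505667 and the Col3a1 window chr1:45311288-45311587, both on the plus strand.
Col4a1: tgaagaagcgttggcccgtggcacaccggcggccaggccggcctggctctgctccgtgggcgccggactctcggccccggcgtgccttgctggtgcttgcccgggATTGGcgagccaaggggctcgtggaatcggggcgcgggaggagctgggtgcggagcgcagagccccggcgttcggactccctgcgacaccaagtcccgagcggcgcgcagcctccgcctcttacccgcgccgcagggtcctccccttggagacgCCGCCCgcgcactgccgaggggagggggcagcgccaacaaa
Col4a2: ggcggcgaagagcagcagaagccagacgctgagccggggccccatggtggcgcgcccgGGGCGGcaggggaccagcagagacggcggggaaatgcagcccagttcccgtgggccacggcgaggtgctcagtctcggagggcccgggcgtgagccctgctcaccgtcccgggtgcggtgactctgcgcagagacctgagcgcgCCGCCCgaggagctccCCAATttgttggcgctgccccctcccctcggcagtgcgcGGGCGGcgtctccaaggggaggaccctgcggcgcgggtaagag
Col1a2: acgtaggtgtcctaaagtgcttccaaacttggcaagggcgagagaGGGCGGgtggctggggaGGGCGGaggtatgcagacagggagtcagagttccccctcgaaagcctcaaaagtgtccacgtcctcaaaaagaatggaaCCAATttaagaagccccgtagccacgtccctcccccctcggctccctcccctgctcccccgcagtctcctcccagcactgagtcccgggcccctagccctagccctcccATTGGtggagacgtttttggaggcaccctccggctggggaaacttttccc
Col3a1: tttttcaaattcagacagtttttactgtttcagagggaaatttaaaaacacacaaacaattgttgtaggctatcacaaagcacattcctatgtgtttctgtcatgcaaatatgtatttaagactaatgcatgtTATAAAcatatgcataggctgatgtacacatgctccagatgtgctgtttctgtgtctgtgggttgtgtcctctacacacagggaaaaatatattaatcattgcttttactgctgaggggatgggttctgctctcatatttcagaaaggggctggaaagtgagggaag

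Col4a1 and Col4a2 lie head to head: the starts used for their windows are 21 bases apart on opposite strands, and their windows overlap by 78 bases. The outer end of the Col4a1 gene is at 11312889 and the Col4a2 gene begins at 11312805, so the genes themselves overlap. The windows of this pair held 37 and 33 CpG pairs, with a GC content of 74.0% in Col4a1 and 73.7% in Col4a2. The Col1a2 window held 13 CpG pairs and 61.0% GC, and the Col3a1 window held 0 CpG pairs and 37.7% GC. Of 42 members, 33 had at least 1 window in the table, 36 windows in all. A GC box was found in 22 of the 36 windows (61.1%), against 35.7% of all 32851 windows of the same length. By gene, it was found in 21 of 33. Windows can overlap: the 1 GC box of the Col4a1 window lies in its overlap with Col4a2 and is marked in both. CCAAT was found in 13 of the 36 (36.1%), against 37.4% of all windows, and TATAAA in 5 (13.9%), against 13.6%. These matches describe letters and not binding sites. Across the genome the members sit on 15 chromosomes, and 7 pairs are next to each other: Col9a1 with Col19a1, Col3a1 with Col5a2, Col4a3 with Col4a4, Col6a1 with Col6a2, Col4a1 with Col4a2, Col6a4 with Col6a5, and Col4a5 with Col4a6.

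The arrays of each group carried the markers of its label. All 8 genes of a pluripotency list (Pou5f1, Sox2, Nanog, Tdgf1, Zfp42, Esrrb, Lin28a and Sall4) were above background in each pluripotent line and 0 of 8 in MEF, and 11 of 11 measured fibroblast markers were above background in MEF. Background was set at the 95th percentile of 38 olfactory receptor genes, which should be silent in these cells, and equals a signal of 2106. Signals are MAS5 intensities in arbitrary units, scaled to a common trimmed mean per array, and a signal is compared only with the same probe set on other arrays. Where a group mean lay below background, the fold is given as a lower bound ("at least"), with the dim arrays raised to background, and no fold is given where both means lay below it. The log2 changes are on the scale log2(signal + 16), and those of a group below background have no measured size. RNA integrity was read from actin probe sets at the 3' and 5' ends, whose ratio averaged 1.28 in IP20D-3, 1.22 in IP14D-101, 1.37 in IP14D-1, 1.21 in CL11 and 1.16 in MEF. Before scaling, the trimmed mean signal ran from 11198.1 to 20466 over the arrays, and 3 arrays a group limit the precision. In bulk RNA, fewer cells of a type and less RNA per cell cannot be told apart.

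The first question was how the collagen repertoire of the pluripotent lines compared with that of the fibroblasts. Most detected collagen genes were far lower in every pluripotent line than in MEF, while Col18a1 was higher in every one. Of the 42 genes, 29 had a mean above background in at least 1 group, 13 in none, and 9 in all 5 groups (Col1a2, Col2a1, Col4a1, Col4a2, Col5a1, Col6a2, Col7a1, Col18a1 and Col27a1). In IP20D-3, 24 members were lower and 5 higher than in MEF (adjusted p under 0.05), where 23.7% of all genes were lower, 30.4% higher and 54.1% one or the other. In IP14D-101, 23 were lower and 5 higher, against 24.7% and 30.4% of all genes and 55.1% in either direction. In IP14D-1, 21 were lower and 5 higher, against 22.9% and 29.9% of all genes and 52.8% in either direction. In CL11, 23 were lower and 5 higher, against 23.8% and 30.3% of all genes and 54.1% in either direction. The median log2 change of the 42 genes was -2.98 in IP20D-3, -2.34 in IP14D-101, -2.18 in IP14D-1 and -2.25 in CL11, while that of all genes was 0.10, 0.05, 0.13 and 0.07 in the same order. These comparisons share the MEF arrays. In 14 to 15 of the 42 genes both means were below background, depending on the line.

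**Figure D1:**
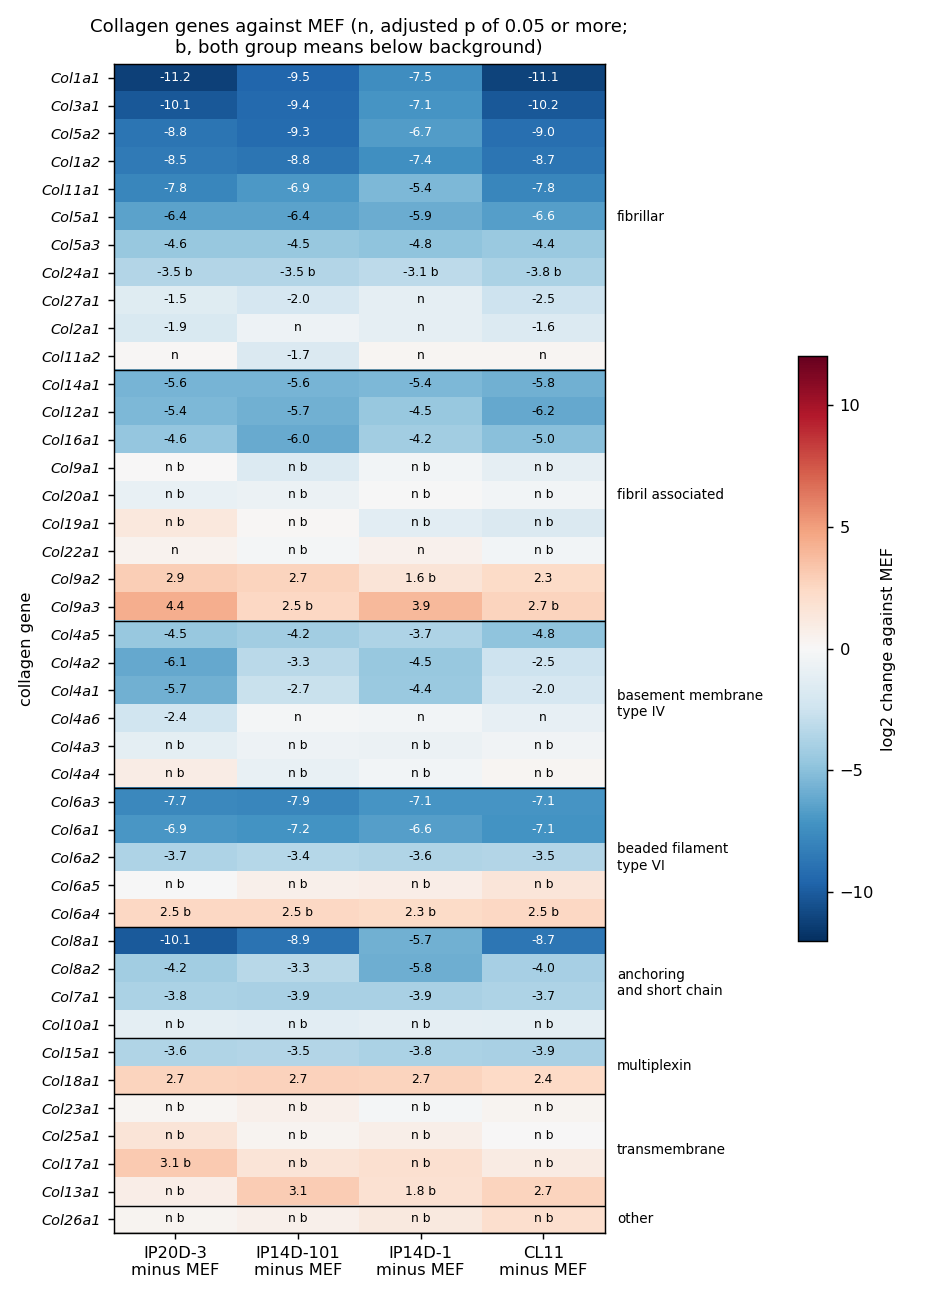
Log2 change of the 42 collagen genes (rows, grouped by class) in IP20D-3, IP14D-101, IP14D-1 and CL11 minus MEF (columns), blue for lower and red for higher. The letter n marks an adjusted p of 0.05 or more and b means that both group means were below background. Where only the pluripotent line was below background the colour is a fitted value without a measured size. Col1a1, Col3a1, Col6a1 and Col8a1 are blue in all 4 columns and Col18a1 is red in all 4.

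Fibrillar collagens were lower in the pluripotent lines almost throughout. Of 11 members, 10 were lower in IP20D-3, 10 in IP14D-101, 8 in IP14D-1 and 10 in CL11, and 0 were higher in any line. Of all genes, 22.9% to 24.7% were lower and 29.9% to 30.4% higher. With a mean above background in either group, 9 were lower in IP20D-3, 9 in IP14D-101, 7 in IP14D-1 and 9 in CL11. Col1a1, which encodes the main chain of type I collagen in bone, skin and tendon, gave signals of 138, 644 and 469 in IP20D-3, 1496, 500.4 and 2051 in IP14D-101, 4982, 4634 and 5299 in IP14D-1, and 391, 183 and 809.7 in CL11, against 900624, 956818 and 783663 in MEF. Every pluripotent array was thus far below every MEF array, and among the lines IP14D-1 had the one mean above background. Against MEF, Col1a1 was lower by at least 413-fold in IP20D-3, IP14D-101 and CL11 (adjusted p of 2.53e-12, 2.54e-11 and 3.1e-12), and 176-fold lower in IP14D-1 (log2 change -7.46 ± 0.56 SE, adjusted p = 1.01e-09).

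Its partner Col1a2, the other chain of type I collagen, read 2373, 3329.6 and 2449 in IP20D-3, 1775, 3042 and 1897 in IP14D-101, 6930.2, 4386 and 5719 in IP14D-1, and 2778, 2283 and 1691 in CL11, against 975356, 1023020.0 and 854415 in MEF. All line means were above background, that of IP14D-1 by the most. Those of IP14D-101 and CL11 were only just above it, with arrays below it, so their folds are close to lower bounds. Against MEF, Col1a2 was 351-fold lower in IP20D-3, 433-fold in IP14D-101, 169-fold in IP14D-1 and 427-fold in CL11 (adjusted p of 4.67e-15 or less). Col3a1, the type III chain of soft, stretchable tissues such as skin and vessel walls, read 843, 1194 and 520.0 in IP20D-3, 1245, 1292 and 1674 in IP14D-101, 6828, 8778 and 5126 in IP14D-1, and 544, 1222 and 762 in CL11, against 923553, 954035 and 897591 in MEF. It was at least 436-fold lower than in MEF in IP20D-3, IP14D-101 and CL11 and 137-fold lower in IP14D-1 (log2 change -7.10 ± 0.31 SE). The next gene on the chromosome, Col5a2, a chain of the type V collagen that starts fibril assembly, gave 2645, 1350.2 and 2038 in IP20D-3, 2296, 1319 and 816 in IP14D-101, 7598, 7717 and 8507 in IP14D-1, and 1819, 1818 and 1265 in CL11, against 858685, 883214 and 788111 in MEF. Again IP14D-1 had the one line mean above background, 106-fold below MEF, and the other lines were at least 368-fold lower.

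Col11a1, a chain of the type XI collagen of cartilage fibrils, read 791, 1256 and 1008 in IP20D-3, 1981, 2166 and 1806 in IP14D-101, 4741, 6667 and 5712 in IP14D-1, and 876, 903 and 1345 in CL11, against 229588, 228917 and 235418 in MEF. It was 40.8-fold lower than in MEF in IP14D-1 and at least 108-fold lower in the other lines. Col5a1, the major type V chain, stayed above background everywhere, at 4190.3, 5048 and 5698 in IP20D-3, 6428, 4397 and 3798 in IP14D-101, 7686, 6106 and 6483 in IP14D-1, and 5918, 3396 and 4079 in CL11, against 422016, 431326 and 392652 in MEF. Its drop below MEF was 83.7-fold in IP20D-3, 87.0-fold in IP14D-101, 61.6-fold in IP14D-1 and 95.2-fold in CL11. Col5a3, the minor type V chain, was 23.7-fold lower in IP20D-3, 23.2-fold in IP14D-101, at least 23.5-fold in IP14D-1 and 21.8-fold in CL11.

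The remaining fibrillar genes were dim or moved little. Col2a1, the cartilage type II chain, was lower in IP20D-3 (log2 change -1.86 ± 0.49 SE, adjusted p = 0.00311) and CL11 (-1.62 ± 0.49, adjusted p = 0.0088) and passed the test in neither IP14D-101 (-0.63) nor IP14D-1 (-1.07). Col27a1, a fibrillar chain of growing cartilage, was lower in IP20D-3 (-1.46 ± 0.58, adjusted p = 0.0418), IP14D-101 (-2.02) and CL11 (-2.53), and read -1.06 in IP14D-1 without passing the test. Without any one of the MEF arrays, or without IP20D-3 replicate 3, the Col27a1 difference in IP20D-3 no longer passed. Col11a2, the type XI partner chain, was at least 1.29-fold lower in IP14D-101 and did not pass the test in the other lines. Col24a1, another fibrillar chain, is counted among the lower genes of all 4 lines, yet lay below background in every group.

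**Figure D2:**
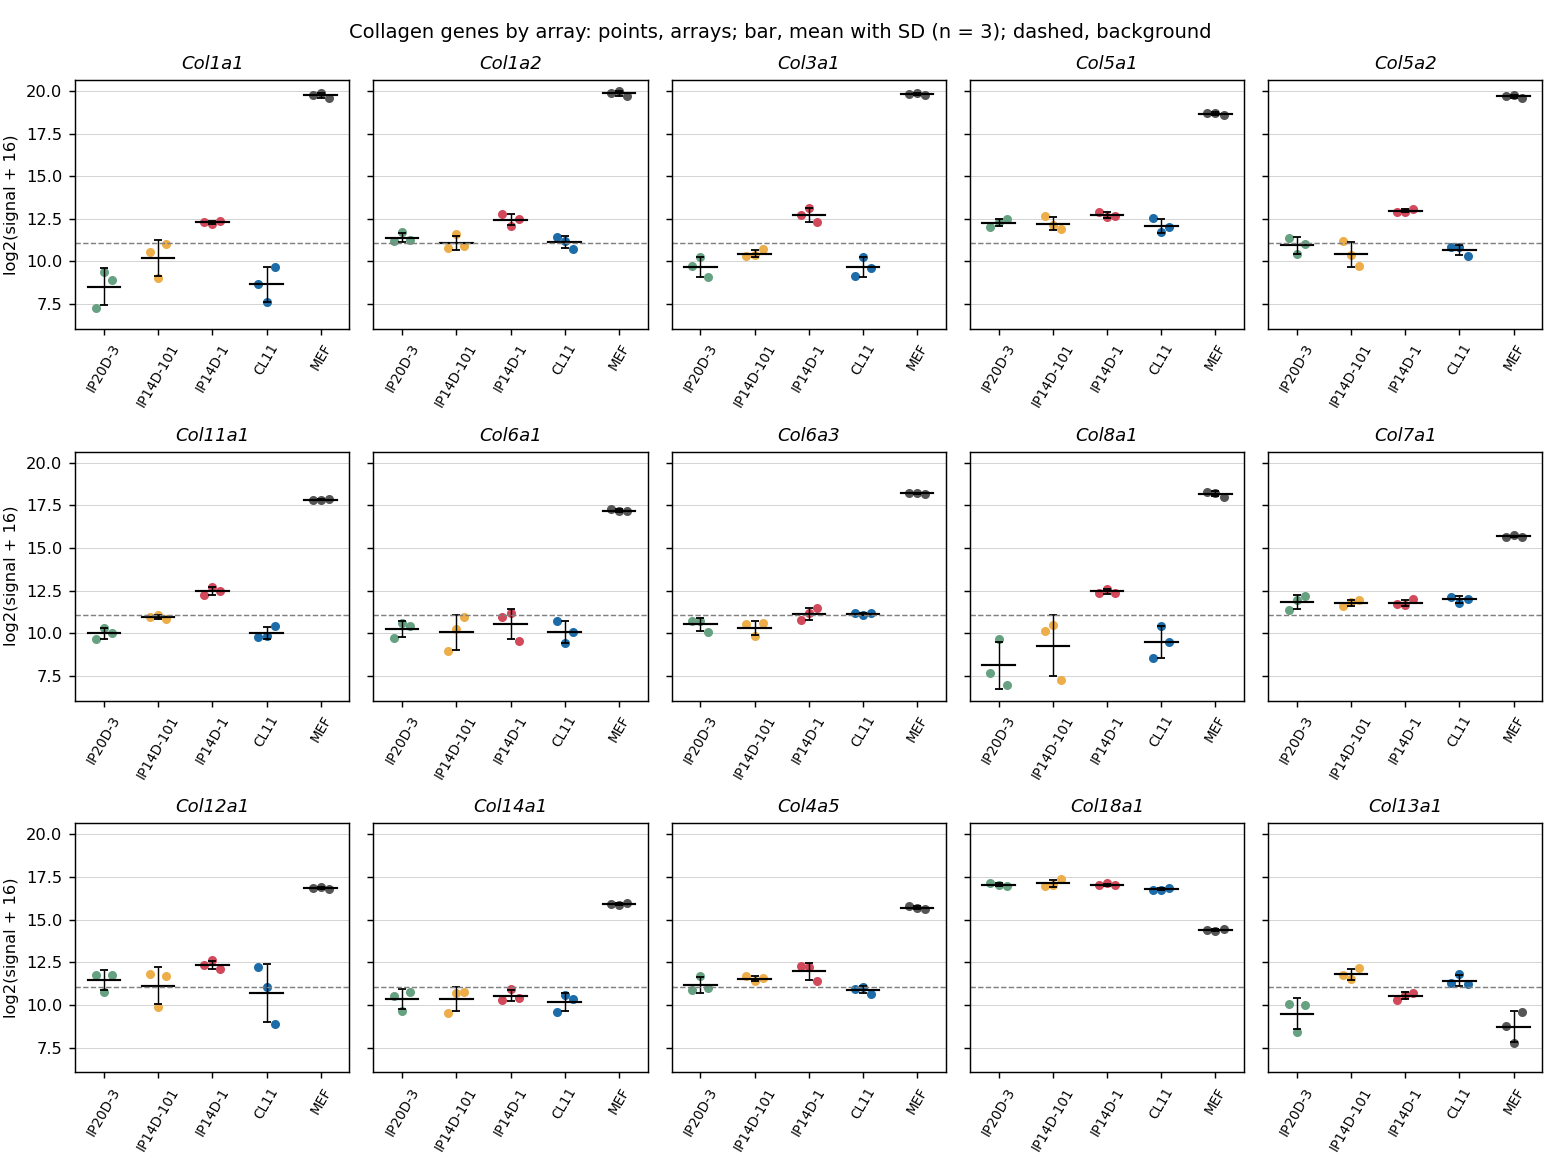
Log2(signal + 16) of 15 collagen genes on each array (points) in IP20D-3, IP14D-101, IP14D-1, CL11 and MEF, with group mean and SD (n = 3); the dashed line is background (11.05). In 13 of the panels all MEF arrays lie above all arrays of the lines, in Col18a1 all MEF arrays lie below all arrays of the lines, and in Col13a1 the MEF arrays overlap those of IP20D-3.

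Fibril-associated and network collagens of the fibroblast followed the fibrillar genes. Col12a1, which coats type I fibrils, read 3490.1, 1723 and 3508 in IP20D-3, 3569.6, 919 and 3337 in IP14D-101, 5143, 6231 and 4351 in IP14D-1, and 4773, 2129.5 and 451 in CL11, against 117182, 126347 and 116222 in MEF. The CL11 arrays were widely spread, and the fold was 43.1 in IP20D-3, 53.5 in IP14D-101, 23.0 in IP14D-1 and at least 42.9 in CL11, each time lower. Col14a1, another fibril coat, lay below background on average in each line, with line arrays between 716 and 1909 against 61909, 60791 and 63451 in MEF, and was at least 29.2-fold lower in each. Col16a1, found at fibril and basement membrane borders, read 1803, 3942 and 2218 in IP20D-3, 1025, 1862 and 431 in IP14D-101, 3879.7, 4179 and 2240.0 in IP14D-1, and 3033, 2102 and 1145 in CL11, against 65039.9, 66194 and 54516 in MEF. Its fold was 24.4 lower in IP20D-3, at least 29.1 in IP14D-101, 18.5 in IP14D-1 and at least 25.8 in CL11.

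Type VI collagen, whose beaded filaments link cells to the surrounding matrix, fell through its 3 classic chains. Col6a1 lay between 477 and 2308 on the 12 arrays of the lines, against 158065, 146712 and 145076 in MEF, so that each line lay at least 68.5-fold under MEF. Col6a3 read 1698, 1653 and 1067 in IP20D-3, 1459.7, 909.6 and 1544 in IP14D-101, 1750.0, 2283 and 2859 in IP14D-1, and 2288, 2113 and 2302 in CL11, against 304698, 305625 and 293246 in MEF. It was 133-fold lower in IP14D-1, 134-fold in CL11 and at least 142-fold in IP20D-3 and IP14D-101. Col6a2 differed by less, at 5135, 6228 and 4169 in IP20D-3, 5763, 4574 and 9082 in IP14D-101, 6866, 4790.5 and 5279 in IP14D-1, and 9425, 4252 and 5214 in CL11, against 69598, 66583 and 67834 in MEF. The fold for Col6a2 was 13.3 in IP20D-3, 10.9 in IP14D-101, 12.2 in IP14D-1 and 11.4 in CL11, each time lower. The newer type VI chains Col6a4 and Col6a5 were below background in every group, and the call of Col6a4 as higher in all 4 lines (log2 change 2.29 to 2.49) rests on values without a measured level.

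Col8a1, a short-chain collagen of vessel walls and the cornea, read 189, 799 and 110.1 in IP20D-3, 1087, 1415 and 134 in IP14D-101, 5305, 6253 and 5188 in IP14D-1, and 353, 1356 and 700.4 in CL11, against 320596, 306017 and 264789 in MEF. It was 53.1-fold lower than in MEF in IP14D-1 and at least 140-fold lower in the other lines. Its partner chain Col8a2 lay below background in each line, between 37.7 and 1347 on single arrays, against 10003, 7791 and 10102 in MEF, and was at least 4.36-fold lower. Col7a1, the anchoring fibril chain that ties skin epithelium to the dermis, read 2654, 3959 and 4537 in IP20D-3, 3116, 3596 and 3968 in IP14D-101, 3379.7, 3149 and 4035 in IP14D-1, and 4489, 3497 and 4135 in CL11, against 51163, 54514 and 50942 in MEF. The Col7a1 arrays of the 4 lines overlapped, and the fold below MEF was 14.3 in IP20D-3, 14.7 in IP14D-101, 14.8 in IP14D-1 and 12.9 in CL11. Col10a1, the collagen of hypertrophic cartilage, was below background in all groups.

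The multiplexins moved in opposite directions. Col18a1, whose tail is the source of endostatin and which marks epithelial and vascular basement membranes, gave 145104, 135658 and 127698 in IP20D-3, 131223, 133960.0 and 171732 in IP14D-101, 132467, 143364 and 132679 in IP14D-1, and 111077, 108287 and 117582 in CL11, against 21285, 21106 and 22165 in MEF. Every array of a line was above every MEF array, and the gene was 6.32-fold higher in IP20D-3, 6.71-fold in IP14D-101, 6.32-fold in IP14D-1 and 5.21-fold in CL11 (log2 change 2.66, 2.75, 2.66 and 2.38, SE 0.09, adjusted p of 4.52e-14 or less). The other probe set of Col18a1 gave log2 changes of 2.04 in IP20D-3, 2.01 in IP14D-101, 2.18 in IP14D-1 and 1.66 in CL11. Col15a1, its relative in muscle and vessel basement membranes, lay below background in every line, between 152 and 972 on single arrays, against 4476, 4277 and 5428 in MEF, and was at least 2.22-fold lower.

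A few dim genes were higher in pluripotent lines. Col9a3, a type IX cartilage chain, read 5769.6, 5169.9 and 4796 in IP20D-3, 1081, 3471 and 775 in IP14D-101, 2698, 4329.8 and 4321 in IP14D-1, and 1915, 1785 and 1335 in CL11, against 160.3, 222 and 381 in MEF. It was above background on average in IP20D-3, at least 2.47-fold over MEF, and in IP14D-1, at least 1.75-fold over MEF. Col9a2, another type IX chain, was higher by at least 2.14-fold in IP20D-3, 1.79-fold in IP14D-101 and 1.35-fold in CL11. Col9a1, the remaining type IX chain, was below background on average in all groups. Col13a1, a transmembrane collagen of cell junctions, read 1037, 329 and 990.0 in IP20D-3, 3396, 2955 and 4552 in IP14D-101, 1253, 1522 and 1683 in IP14D-1, and 2474, 3521 and 2356 in CL11, against 424, 206 and 757 in MEF. It was higher by at least 1.69-fold in IP14D-101 and 1.30-fold in CL11 and below background in IP20D-3, IP14D-1 and MEF. Col22a1, found at tissue junctions, passed the test against MEF in none of the lines. The cartilage marker list (Sox9, Acan, Comp, Matn1, Matn3 and Hapln1) had 0 to 1 of 6 genes higher and 1 of 6 lower in the lines against MEF. Of all genes, 29.9% to 30.4% were higher and 22.9% to 24.7% lower.

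The 13 genes below background in every group were Col4a3, Col4a4, Col6a4, Col6a5, Col9a1, Col10a1, Col17a1, Col19a1, Col20a1, Col23a1, Col24a1, Col25a1 and Col26a1. At this signal, differences in them were not measurable as levels, and this holds also for calls such as that of Col17a1 as higher in IP20D-3 than in MEF. Further probe sets of called genes were compared where they lay above background in either group. Against MEF, 20 of 20 probe sets (16 genes) moved the same way in IP20D-3 and 18 of 18 (14 genes) in IP14D-101. The counts were 17 of 17 (13 genes) in IP14D-1 and 18 of 18 (14 genes) in CL11. A probe set bright only in MEF passes this filter through MEF, so its direction was fixed in advance. These counts are therefore no independent support.

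The main type IV collagen pair differed between all of the pluripotent lines. Col4a1 and Col4a2, whose chains combine into the ubiquitous basement membrane network, formed the order IP20D-3 lowest, then IP14D-1, IP14D-101, CL11 and MEF, in both genes and with no overlap between any neighbours. Col4a1 read 12708, 11983 and 12707 in IP20D-3, 91122, 101112 and 124269 in IP14D-101, 31512, 31921 and 29906 in IP14D-1, and 165533, 163396 and 154544 in CL11, against 684051, 692033 and 622310.0 in MEF. Col4a2 read 4331, 5527 and 3833 in IP20D-3, 35660.3, 24581 and 40944 in IP14D-101, 15023, 12935 and 13784 in IP14D-1, and 57272, 58691 and 56799.5 in CL11, against 327137, 327846 and 296226 in MEF. Relative to MEF, Col4a1 was 53.3-fold lower in IP20D-3, 6.36-fold in IP14D-101, 21.4-fold in IP14D-1 and 4.13-fold in CL11, and Col4a2 was 70.0-fold, 9.60-fold, 22.8-fold and 5.50-fold lower in the same order of lines.

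Against CL11, the ES line, Col4a1 was 12.9-fold lower in IP20D-3 (log2 change -3.69 ± 0.09 SE, adjusted p = 1.18e-14), 5.18-fold lower in IP14D-1 (-2.37 ± 0.09, adjusted p = 5.01e-12) and 1.54-fold lower in IP14D-101 (-0.62 ± 0.09, adjusted p = 0.000145). Col4a2 was 12.7-fold lower in IP20D-3 (-3.67 ± 0.15, adjusted p = 1.76e-11), 4.14-fold lower in IP14D-1 (-2.05 ± 0.15, adjusted p = 2.52e-08) and 1.75-fold lower in IP14D-101 (-0.80 ± 0.15, adjusted p = 0.00153). The head-to-head genes thus changed by similar amounts in each line. Between iPS lines, IP20D-3 was below IP14D-1 by 2.49-fold for Col4a1 and 3.07-fold for Col4a2, and below IP14D-101 by 8.39-fold and 7.29-fold. IP14D-101 was above IP14D-1 by 3.36-fold for Col4a1 and 2.37-fold for Col4a2. The second Col4a1 probe set gave log2 changes of -3.64, -0.77 and -2.57 for IP20D-3, IP14D-101 and IP14D-1 against CL11. The Col4a1 and Col4a2 calls between lines were kept under each alternative run and with any single array left out.

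Col4a5, an X-linked chain of specialised basement membranes, read 1830.0, 3325 and 2013 in IP20D-3, 3261, 2695 and 2996 in IP14D-101, 5014, 4812 and 2712 in IP14D-1, and 1980.3, 2142 and 1590.1 in CL11, against 56258, 53496 and 51416 in MEF. It was 23.1-fold lower than in MEF in IP20D-3, 18.0-fold in IP14D-101, 13.3-fold in IP14D-1 and at least 25.2-fold in CL11. IP14D-1 was at least 1.90-fold above CL11, and the other iPS lines did not pass the test against CL11. Col4a6, its neighbour on the X chromosome, lay near background, at 474, 473 and 539 in IP20D-3, 1246, 3603 and 2929 in IP14D-101, 2427, 2821 and 1577 in IP14D-1, and 1372, 2353 and 719 in CL11, against 3442, 2097 and 2760.5 in MEF. The IP20D-3 arrays were below all others, at least 1.29-fold under MEF, 1.12-fold under IP14D-101 and 1.05-fold under IP14D-1. The calls against IP14D-101 and IP14D-1 were lost with all probe sets of Col4a6 averaged.

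**Figure D3:**
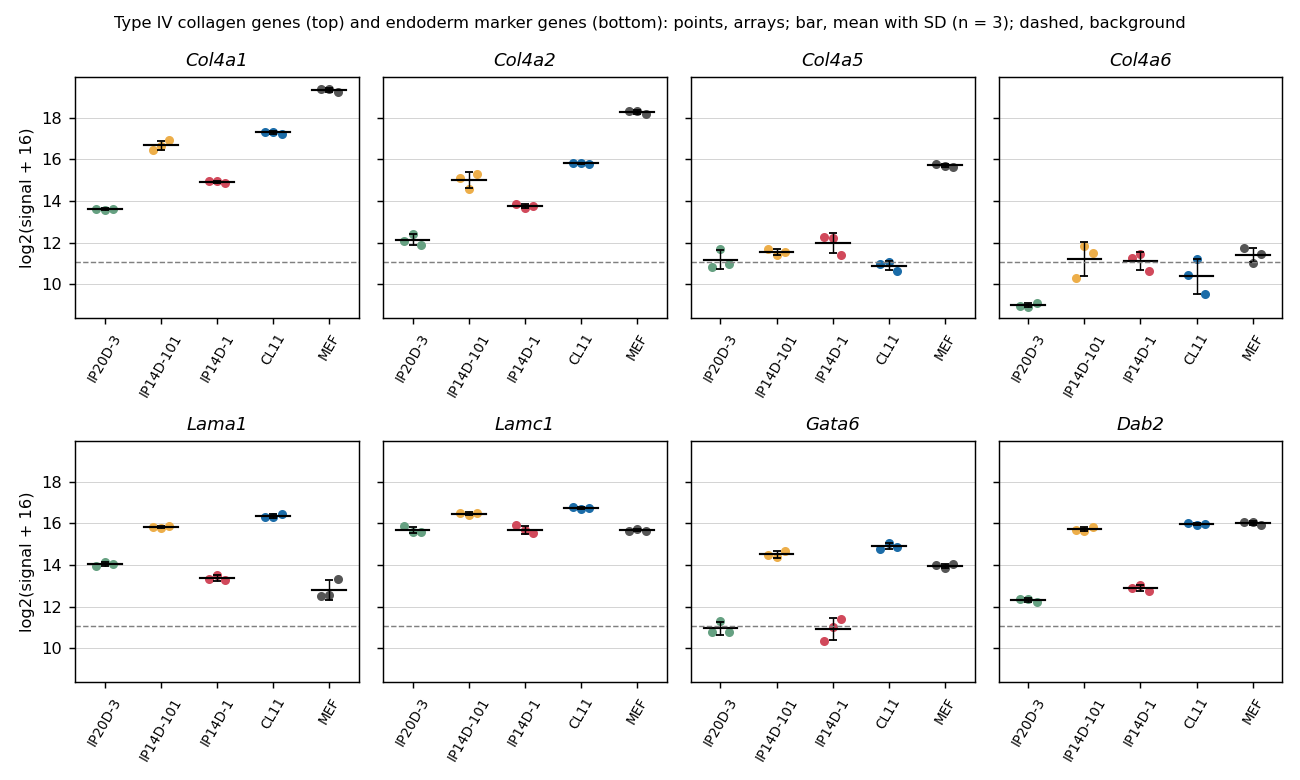
Log2(signal + 16) on each array of 4 type IV collagen genes (top) and 4 endoderm marker genes (bottom) in IP20D-3, IP14D-101, IP14D-1, CL11 and MEF, with group mean and SD (n = 3) and background (dashed). Col4a1 and Col4a2 fall in separate steps over the lines; Lama1, Lamc1, Gata6 and Dab2 are also lower in IP20D-3 and IP14D-1 than in IP14D-101 and CL11.

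Primitive and parietal endoderm are the embryonic cells known to secrete type IV collagen and laminin. Like Col4a1 and Col4a2, most of their markers were lower in IP20D-3 and IP14D-1 than in CL11. Of 12 such genes (Gata4, Gata6, Sox7, Sox17, Foxa2, Dab2, Lama1, Lamb1, Lamc1, Thbd, Cubn and Srgn), 11 were lower and 1 higher than in CL11 in IP20D-3, and likewise 11 and 1 in IP14D-1. In IP14D-101 against CL11, 1 was lower and 1 higher. Of all genes, 11.3% were lower and 10.5% higher in IP20D-3, 12.6% and 11.7% in IP14D-1, and 5.47% and 6.04% in IP14D-101. The same shares apply to the other marker lists against CL11. The marker lists were chosen with earlier results of these data known, so their counts are no independent support. The summed signal of the 12 genes ran from 153046 to 156661 in IP20D-3, 427221 to 469451 in IP14D-101, 149771 to 167671 in IP14D-1 and 575957 to 607895 in CL11, against 348627 to 368579 in MEF. Gata6, a regulator that specifies primitive endoderm, was lower than in CL11 by at least 13.6-fold in IP20D-3 and 13.3-fold in IP14D-1, with line means below background. Sox17, Foxa2, Cubn and Srgn were below background in both of these lines as well, and Gata4 in IP20D-3. The laminin chain gene Lama1 had log2 changes against CL11 of -2.30 in IP20D-3 and -2.98 in IP14D-1, and Lamc1 had -1.05 and -1.04. The summed signal of the list overlapped between IP20D-3 and IP14D-1, while Col4a1 was 2.49-fold lower in IP20D-3 than in IP14D-1. The part of endoderm-like cells in the type IV difference was not tested. Visceral endoderm markers (Afp, Ttr, Apoa1, Apob, Hnf4a and Amn) had 1 of 6 lower in each iPS line against CL11 and 0 higher, and Afp, Ttr, Apoa1 and Apob were below background in all groups.

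The second pattern between lines was a higher signal of fibroblast collagens in IP14D-1 than in the other lines. Against CL11, 9 members were higher and 2 lower in IP14D-1, where 11.7% of all genes were higher, 12.6% lower and 24.3% either. The 9 were the fibrillar genes Col1a1, Col1a2, Col3a1, Col5a1, Col5a2 and Col11a1 with Col8a1, Col4a5 and Col18a1, and the 2 were Col4a1 and Col4a2. The median log2 change was 0.42 over the 42 genes and 0.03 over all genes. In IP14D-101 against CL11, 2 were higher (Col11a1, with both means below background, and Col18a1) and 3 lower (Col4a1, Col4a2 and Col11a2), against 6.04% and 5.47% of all genes, 11.5% together. In IP20D-3 against CL11, 3 were higher (Col9a3, Col18a1 and Col19a1, the last below background in both groups) and 3 lower (Col4a1, Col4a2 and Col13a1), against 10.5% and 11.3% of all genes, 21.9% together. The Col13a1 call was lost without CL11 replicate 2 or without IP20D-3 replicate 2. The comparisons with CL11 share its arrays. In either direction, 11 of 42 members were called in IP14D-1 and 5 in IP14D-101, each close to the share of all genes. In IP20D-3, 6 were called, below that share. In IP14D-1 the share of higher members was above that of all genes and the share of lower members below it.

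The per-array signals given above show the arrays of IP14D-1 apart from those of CL11 for these genes. Col1a2 and Col5a1 had means above background in both lines, that of Col1a2 in CL11 only just. Col1a2 was 2.52-fold higher in IP14D-1 than in CL11 (log2 change 1.33 ± 0.23 SE, adjusted p = 0.000333). For Col1a1, Col3a1, Col5a2, Col11a1 and Col8a1 the CL11 mean was below background, and the bounds were at least 2.35-fold for Col1a1 (adjusted p = 0.000103), 3.19-fold for Col3a1 (1.23e-06), 3.74-fold for Col5a2 (1.65e-05), 2.67-fold for Col11a1 (9.51e-07) and 2.63-fold for Col8a1 (0.00547). Col5a1 was higher by 1.55-fold (adjusted p = 0.0305), a call lost under 8 settings: median scaling, quantile normalization, no variance trend, a fit of only the 6 arrays compared, and CL11 replicate 2 or 3 or IP14D-1 replicate 1 or 3 left out. Between IP20D-3 and CL11, 0 of 11 fibrillar genes passed the test in either direction, where 21.9% of all genes did.

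Tested directly, IP20D-3 against IP14D-1 had 0 collagen genes higher and 9 lower, where 4.87% of all genes were higher, 4.33% lower and 9.20% either. They were Col1a1, Col1a2, Col3a1, Col5a2, Col11a1, Col8a1, Col4a1, Col4a2 and Col4a6, with Col1a2 lower by 2.07-fold and Col5a2 by at least 3.47-fold. IP14D-101 against IP14D-1 had 2 higher (Col4a1 and Col4a2) and 9 lower, against 14.9% and 13.1% of all genes, 27.9% together. The 9 were Col1a1, Col1a2, Col3a1, Col5a2, Col11a1, Col11a2, Col8a1, Col16a1 and Col6a3, with Col1a2 lower by 2.56-fold and Col3a1 by at least 3.19-fold. The Col6a3 call was lost under 6 settings, among them median scaling and quantile normalization. With all probe sets of a gene averaged, the log2 changes of Col1a2 (-1.07 and -0.90) and Col3a1 (-1.52 in both) in these comparisons no longer passed (adjusted p of 0.0668 to 0.202). With the arrays scaled to a common median, 6 were higher and 8 lower in IP14D-101 against IP14D-1. IP20D-3 against IP14D-101 had 3 higher and 6 lower, against 11.0% and 12.5% of all genes, 23.5% together. The 3 were Col11a2, Col16a1 and Col9a3, at least 1.43-fold, 1.19-fold and 2.09-fold. The Col16a1 arrays overlapped, and its call was lost under 9 alternatives. The Col9a3 call was lost without IP14D-101 replicate 1 or 3, or without IP20D-3 replicate 1. The 6 were Col4a1, Col4a2, Col4a6, Col13a1, and Col1a1 and Col11a1 with both means below background. Of the 42 members, the 11 called in IP14D-101 against IP14D-1 were close to the share of all genes. The 9 called in IP20D-3 against IP14D-101 were also close to theirs. The 9 called in IP20D-3 against IP14D-1 were above theirs.

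**Figure D4:**
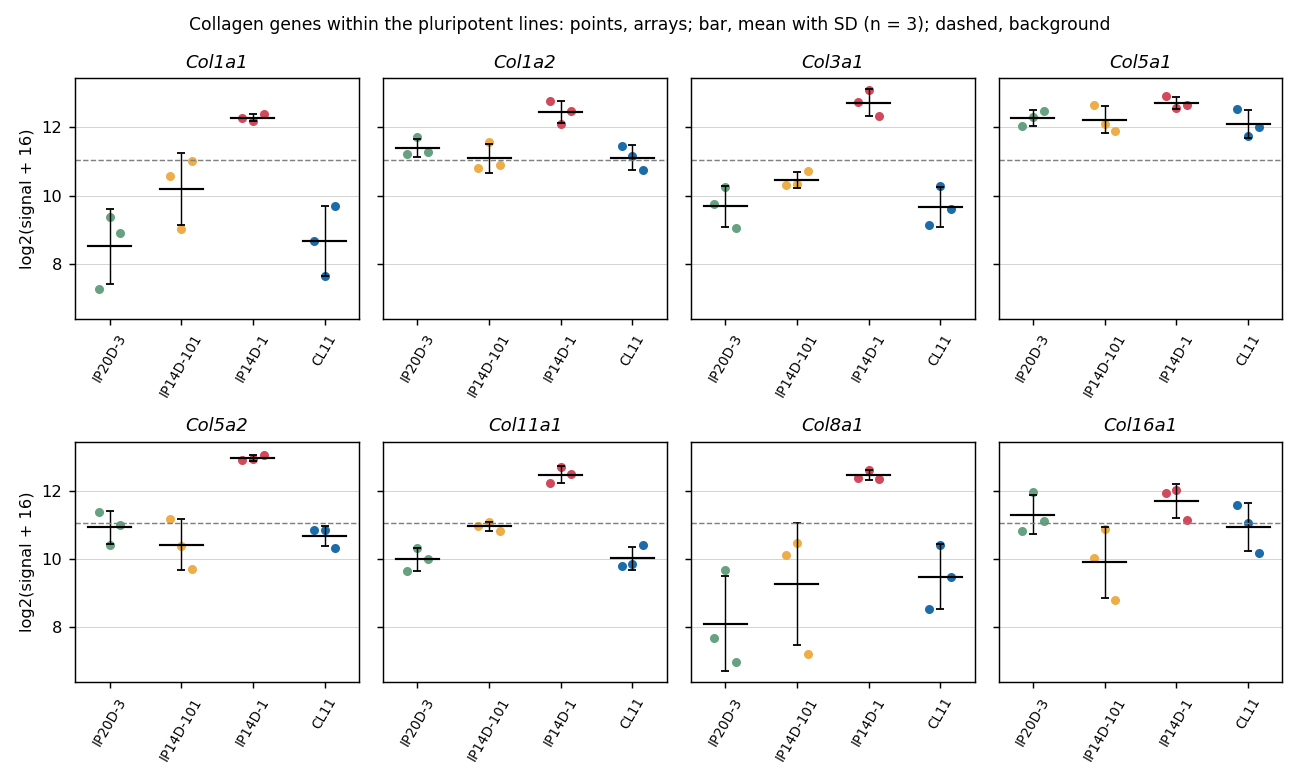
Log2(signal + 16) on each array of 8 collagen genes in IP20D-3, IP14D-101, IP14D-1 and CL11, with group mean and SD (n = 3) and background (dashed). For Col1a1, Col1a2, Col3a1, Col5a2, Col11a1 and Col8a1 the 3 arrays of IP14D-1 lie above all arrays of the other lines; Col5a1 and Col16a1 are closer to the other lines.

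The higher signal in IP14D-1 was still a small share of the fibroblast level. In IP14D-1, Col1a1 stood at 0.565% ± 0.0378 of the MEF mean (SD, n = 3), Col1a2 at 0.597% ± 0.134, Col3a1 at 0.747% ± 0.198 and Col5a2 at 0.942% ± 0.0586. Col5a1 stood at 1.63%, Col8a1 at 1.88% and Col11a1 at 2.47% of the MEF mean. Fibroblast markers on the same arrays spanned a wider range: Postn, a matrix protein of fibroblasts, stood at 0.308%, Thy1, a surface marker, at 0.949%, and Twist1, a mesenchymal regulator, at 10.9%. In CL11 they stood at 0.0225%, 0.987% and 4.31%, with Postn and Twist1 below background there. Thy1 was thus not raised in IP14D-1. Fibroblast and feeder markers above background numbered 2 in IP20D-3, 3 in IP14D-101, 4 in IP14D-1 and 2 in CL11, of 11. IP14D-1 had 11.7% of all genes higher than CL11 and 12.6% lower. Of the 11 markers, 2 were higher (Postn by at least 1.37-fold, Twist1 by at least 2.04-fold), 1 was lower (Pdgfra) and 8 did not pass the test. Their summed signal ran from 12435.1 to 15751.7 in IP20D-3, 25806.7 to 26624.3 in IP14D-101, 19490.5 to 22085.3 in IP14D-1 and 21575 to 25657.6 in CL11, against 2308870 to 2361270 in MEF. Pdgfra, a receptor that primitive endoderm also carries, made up 11562 to 12623 of the sum in CL11 and 765 to 1517 in IP14D-1. With all 11 markers, the IP14D-1 sums overlapped those of CL11 and lay below those of IP14D-101. Without Pdgfra, the other 10 markers summed to 12261.6 to 15600.5 in IP20D-3, 8827 to 12142 in IP14D-101, 18725 to 20639 in IP14D-1 and 9523 to 13035 in CL11. Leaving it out was a choice made after seeing the data. Pdgfra was the 1 marker lower in IP14D-1 than in CL11, so the choice favours IP14D-1 and no conclusion is drawn from these sums. The median log2 change of the 11 markers in IP14D-1 against CL11 was 1.16. Pdgfrb, Prrx1, Twist2, Lum, Dcn and Aspn were below background in all lines.

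Smooth muscle markers (Acta2, Tagln, Cnn1, Myh11, Actg2 and Des), which fibroblasts in culture also express, were mostly higher in IP14D-1 than in CL11. Against CL11, 4 of 6 were higher in IP14D-1 and 1 lower, with log2 changes of 3.44 for Acta2 and 3.56 for Tagln. Their summed signal ran from 68515.9 to 83934.6 in IP20D-3, 56276.3 to 65686.4 in IP14D-101, 235917 to 252785 in IP14D-1 and 31718.8 to 37804.6 in CL11, against 2323260 to 2641930 in MEF. Myh11, specific to mature smooth muscle, was below background in all 4 lines. In IP20D-3 and in IP14D-101, 3 of 6 were higher than in CL11, with 1 lower in IP20D-3 and 0 in IP14D-101. IP20D-3 against IP14D-1 had 2 of 6 lower and 0 higher, against 4.33% and 4.87% of all genes. IP14D-101 against IP14D-1 had 4 lower and 1 higher, against 13.1% and 14.9% of all genes. In the endothelial list (Cdh5, Kdr, Tie1, Tek, Emcn and Vwf) 0 of 6 passed the test between any iPS line and CL11, and in the macrophage list (Cd68, C1qa, C1qb, Csf1r, Adgre1 and Itgam) 0 were higher and 1 lower in each. IP14D-1 also had the highest actin 3' to 5' ratio. The part of feeder cells, differentiated cells or RNA quality in the IP14D-1 signal was not tested.

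Col18a1 was slightly higher in each iPS line than in CL11, with log2 changes of 0.28 ± 0.09 in IP20D-3 (adjusted p = 0.0323), 0.36 ± 0.09 in IP14D-101 (adjusted p = 0.0113) and 0.28 ± 0.09 in IP14D-1 (adjusted p = 0.0286), and the arrays did not overlap. The calls depended on the processing: no variance trend or leaving out CL11 replicate 2 ended all 3, median scaling ended those in IP20D-3 and IP14D-1, and no scaling ended those in IP20D-3 and IP14D-101. Among dim genes, Col9a3 in IP20D-3 was at least 2.47-fold over CL11 (adjusted p = 0.0316), a call lost when any single array of either group was left out. Col11a2 read 2276, 3158 and 3803 in IP20D-3, 1682, 362 and 847 in IP14D-101, 3487, 3583 and 2742 in IP14D-1, and 3737, 2839.9 and 3145 in CL11, so that IP14D-101 was the low line, at least 1.52-fold under CL11. That call was lost in a fit of only the 6 arrays compared.

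Genes that make, cross-link, sense and degrade collagen were also mostly lower in pluripotent lines than in MEF. Of 19 measured genes of chain hydroxylation, glycosylation and folding, 16 were lower and 1 higher in IP20D-3, 16 and 2 in IP14D-101, 16 and 1 in IP14D-1, and 17 and 2 in CL11. Of all genes, 22.9% to 24.7% were lower and 29.9% to 30.4% higher in these comparisons, and the same shares apply to the other pathway lists against MEF. P4ha1, a catalytic subunit of prolyl 4-hydroxylase, read 7539, 8059 and 11127 in IP20D-3, 28375, 30336 and 33038 in IP14D-101, 11096, 8263 and 9474 in IP14D-1, and 27835, 30418 and 29494 in CL11, against 186419, 185483 and 164433 in MEF. Its arrays in IP20D-3 and IP14D-1 lay below those of the other lines, and MEF lay above all. Serpinh1, the chaperone HSP47 that binds the collagen helix, had log2 changes against MEF of -3.98 in IP20D-3, -3.17 in IP14D-101, -3.28 in IP14D-1 and -3.00 in CL11. Fkbp14, a prolyl isomerase of collagen folding, had -4.53, -3.64, -4.09 and -3.74, and P3h3, a prolyl 3-hydroxylase, -4.37, -4.33, -4.36 and -3.75, in the same order of lines.

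Of 15 measured genes of export, propeptide cleavage and cross-linking, 11 were lower and 0 higher in IP20D-3, 11 and 1 in IP14D-101, 11 and 1 in IP14D-1, and 12 and 1 in CL11. Lox, the lysyl oxidase that starts collagen cross-links, read 2379, 1743 and 2345 in IP20D-3, 938, 1599.7 and 378 in IP14D-101, 12448, 12080.4 and 13851 in IP14D-1, and 1899, 930.5 and 2307 in CL11, against 707606, 757247 and 686466 in MEF. As with the fibrillar genes, the IP14D-1 arrays stood above the other lines, by at least 5.85-fold over CL11 (adjusted p = 1.32e-05). Loxl1, a related oxidase of elastic fibres, had log2 changes against MEF of -6.95 in IP20D-3, -5.96 in IP14D-101, -6.29 in IP14D-1 and -6.04 in CL11. Bmp1, the protease that removes the propeptide of fibrillar procollagens, was lower by at least 30.7-fold in IP20D-3 and 32.8-fold in IP14D-101, and had log2 changes of -3.71 in IP14D-1 and -5.09 in CL11.

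Of 11 measured collagen receptors, 6 were lower in each line than in MEF and 0 to 1 higher, beside 22.9% to 24.7% lower and 29.9% to 30.4% higher of all genes. Cd44, a receptor for hyaluronan that also binds collagen, had log2 changes of -7.07 in IP20D-3 and -5.48 in IP14D-1, and was at least 152-fold lower in IP14D-101 and CL11. Ddr2, the receptor kinase for fibrillar collagen, was lower in all 4 lines, by at least 42.7-fold. Of 10 measured genes of collagen degradation, which include proteases and their inhibitors, 9 were lower in IP20D-3, 9 in IP14D-101, 8 in IP14D-1 and 10 in CL11, and 0 were higher. Timp2, a metalloproteinase inhibitor, had -6.07 in IP20D-3, -5.26 in IP14D-101, -4.65 in IP14D-1 and -5.00 in CL11, and Mmp14, a membrane-bound collagenase, had -4.20, -3.72, -3.83 and -3.89. Ctsk, the collagen-cleaving cathepsin of osteoclasts, was lower in all 4 lines, by at least 19.8-fold.

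**Figure D5:**
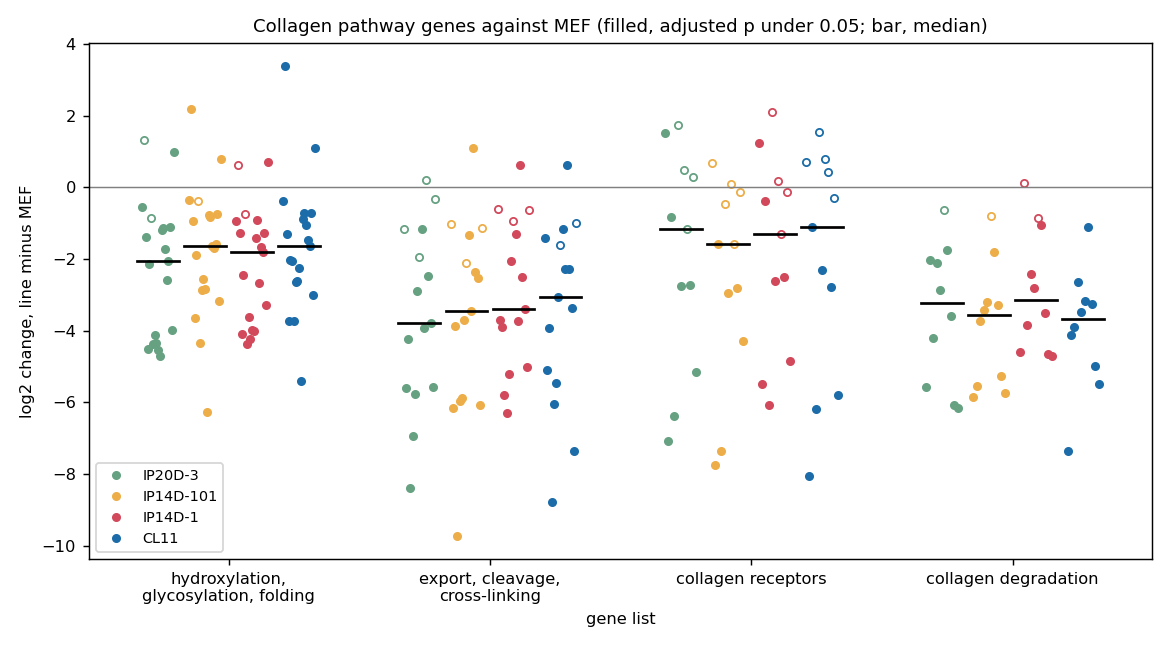
Log2 change against MEF of the measured genes in 4 lists of the collagen pathway (each point a gene) in IP20D-3, IP14D-101, IP14D-1 and CL11; filled points passed an adjusted p of 0.05 and bars are medians. The medians lie between -1.63 and -2.07 for hydroxylation and folding, -3.07 and -3.78 for export and cross-linking, -1.12 and -1.59 for receptors, and -3.15 and -3.68 for degradation; points of genes below background in a line have no measured size.

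Between lines, part of the hydroxylation and folding list was lower in IP20D-3 and IP14D-1 than in CL11. In IP20D-3, 11 of 19 were lower and 0 higher, against 11.3% and 10.5% of all genes, and 8 did not pass the test. In IP14D-1, 11 were lower and 1 higher, against 12.6% and 11.7% of all genes, and 7 did not pass. In IP14D-101, 3 were lower and 2 higher, against 5.47% and 6.04% of all genes. P4ha2, a second prolyl hydroxylase subunit, had log2 changes against CL11 of -2.28 in IP20D-3, -0.59 in IP14D-101 and -1.73 in IP14D-1. P4ha1 had -1.73 in IP20D-3 and -1.61 in IP14D-1, and read 0.06 in IP14D-101 without passing the test. Plod1, a lysyl hydroxylase, had -0.66, -0.57 and -1.62 in IP20D-3, IP14D-101 and IP14D-1. In IP20D-3 against IP14D-101, 11 were lower and 0 higher, against 12.5% and 11.0% of all genes. In IP14D-101 against IP14D-1, 1 was lower and 9 higher, against 13.1% and 14.9% of all genes, and with signals left unscaled the list had 5 lower and 3 higher. In IP20D-3 against IP14D-1, 4 were lower and 2 higher, against 4.33% and 4.87% of all genes. In IP14D-1 against CL11, 2 of 11 receptors were higher (Cd44 by at least 3.40-fold, and Ddr1, with a log2 change of 0.73), 3 of 10 degradation genes were higher, and 3 of 15 export and cross-linking genes were higher with 2 lower, counts of a few genes beside 11.7% higher and 12.6% lower of all genes.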

How the data were processed

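Total RNA from 15 samples was hybridised as biotin-labelled cRNA, per the labels' protocols, and the authors deposited MAS5 signal intensity values per probe set, per the submitters' processing notes, which name Affymetrix Expression Console without a version. Their scaling target is not given in the sources used here. Arrays were scaled to a common 2% trimmed mean, log2(signal + 16) was fitted with limma 3.58.1 in R 4.3.3 (1 mean per group, variance trend, 10 comparisons), and p-values were adjusted by Benjamini-Hochberg over 18193 genes at a threshold of 0.05. Of 45101 probe sets, 34945 named a single gene in the platform annotation, 932 several and 9160 none, and 64 were controls. The fit was tested on simulated data. Background was the 95th percentile of 38 olfactory receptor genes.

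The collagen genes, the pathway lists and the marker lists were chosen with earlier results of these data known. Any collagen gene could be named. Values on every array were given for Col1a1, Col1a2, Col3a1, Col4a1 and Col4a2, for up to 3 genes per class with the largest range of group means, and for genes called between lines at 2-fold or more. Pathway genes could be named if among the up to 4 called genes with the largest change in a list and comparison, and not all were. P4ha3, for example, had the largest change of the hydroxylation list in IP20D-3, IP14D-101 and CL11 against MEF and was not described. Col6a6, Col21a1 and Col28a1 were not analysed here. Replicate numbers did not pair the samples: deviations of same-numbered arrays correlated between -0.0296 and 0.0334 over 30 pairs. Alternatives were other scalings, pseudocounts, probe set rules, variance priors, fits of the 6 arrays compared, a replicate block and each array left out.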

Additional observations from a re-analysis of the deposited data

Results flagged for a closer look

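The change against MEF differed between lines, by the test of the difference itself, for 5 genes measured above background on both sides. The lines share the MEF arrays, so each value below is also the log2 difference between 2 lines. For Col4a1 it was -3.691 for IP20D-3 minus CL11, -0.6227 for IP14D-101 minus CL11, -2.372 for IP14D-1 minus CL11, -3.068 for IP20D-3 minus IP14D-101, -1.318 for IP20D-3 minus IP14D-1 and 1.75 for IP14D-101 minus IP14D-1. For Col4a2 the same differences were -3.67, -0.8035, -2.051, -2.866, -1.619 and 1.247. Col1a2 differed by 1.333 for IP14D-1 minus CL11, -1.051 for IP20D-3 minus IP14D-1 and -1.355 for IP14D-101 minus IP14D-1. The Col1a2 calls of IP20D-3 and IP14D-101 against IP14D-1 were lost with all probe sets of the gene averaged. Col5a1 differed by 0.6286 for IP14D-1 minus CL11 (limma adjusted p = 0.0305), a call lost under 8 settings. Col18a1 differed from CL11 by 0.2765 in IP20D-3, 0.3646 in IP14D-101 and 0.2777 in IP14D-1. These Col18a1 calls were lost under 7, 4 and 6 settings, in the same order of lines.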

How the results depend on the processing

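Of 145 gene differences, 0 reversed in 1595 alternative fits, 1565 kept their call and 30 lost it; with single arrays left out, 833 of 870 kept it and 37 lost it. The count of collagen genes that differed moved by over 1.5 times as follows, and the cause was not tested. For IP14D-101 against CL11, 5 became 3 without scaling, 2 with only the 6 arrays compared, and 8 without IP14D-101 replicate 2. For IP20D-3 against CL11, 6 became 3 without CL11 replicate 2. Without scaling, 11 became 17 for IP14D-101 against IP14D-1 and 9 became 15 for IP20D-3 against IP14D-1. With single arrays left out, the counts against MEF ran from 27 to 30 in IP20D-3, 27 to 29 in IP14D-101, 23 to 26 in IP14D-1 and 27 to 29 in CL11. Against CL11 they ran from 3 to 7 in IP20D-3, 4 to 8 in IP14D-101 and 9 to 12 in IP14D-1. They ran from 8 to 11 for IP20D-3 against IP14D-1, 10 to 13 for IP14D-101 against IP14D-1 and 7 to 10 for IP20D-3 against IP14D-101. The split of higher and lower collagen genes in IP14D-101 against IP14D-1 was 2 and 9, against 6 and 8 with median scaling. With a replicate block the counts against MEF were 29 in IP20D-3, 28 in IP14D-101, 26 in IP14D-1 and 28 in CL11, the same as without it. Median scaling moved the median log2 change of all genes to between 0.12 and 0.39 against MEF. Genes below background have bounds in place of sizes.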
